A study of Mus musculus with 7 samples.

Results

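Bile acid synthesis and hepatobiliary transport were described here by 32 genes of the mouse liver. They comprise the enzymes that turn cholesterol into conjugated bile acids and the carriers that move bile acids and bile lipids across the hepatocyte membranes. Also included are the sensor and feedback genes that restrain bile acid synthesis. The genes were chosen by name, with earlier results of these data known. A gene counted as measured where platform annotation gave a probe set that symbol alone. All 32 of 32 were measured, among 18193 genes in all.

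Bile acids are made from cholesterol in hepatocytes, either by a pathway that starts with the 7α-hydroxylase CYP7A1 or by an alternative one that starts with the sterol 27-hydroxylase CYP27A1. They are joined to taurine or glycine, pumped across the canalicular membrane into bile, reabsorbed in the intestine and taken up again from portal blood across the sinusoidal membrane. The nuclear receptor FXR (Nr1h4) senses returning bile acids and induces the repressor SHP (Nr0b2). The receptor FGFR4 with β-Klotho (Klb) binds the intestinal hormone FGF15. Both routes restrain bile acid synthesis.

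The livers came from 2-month-old mice of B6/129 background. The 3 controls were labelled wild type (WT-27, WT-103, WT-104) and the other 4 mice were mir-122 knockouts (KO-03, KO-90, KO-91, KO-94), each measured on 1 array; values below follow this order. miR-122 is an abundant microRNA of hepatocytes. The labels used here do not say how or in which cells the knockout was made, nor the animals' sex, litter or feeding state, and the genotype was not checked on the arrays, where no named probe set measures miR-122.

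The values were log2 intensities from Affymetrix arrays, so a difference of 1 is a factor of 2. Array medians lay between 4.65 and 4.72. Pairs of wild-type arrays correlated at 0.989 to 0.991, pairs of knockout arrays at 0.979 to 0.992, and pairs of unlike genotype at 0.969 to 0.988. Arrays give no read depth, and the number of animals limits the precision. As the floor under which a level is not told from background served, on each array, the brightest of 27 control probe sets for bacterial transcripts (4.71 to 5.23). Above this floor on all 7 arrays lay 29 of the 32 genes, and each of the 7 measured hepatocyte markers. Genotypes were compared with limma, with p-values adjusted over all 18193 genes and a threshold of 0.05.

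Of the 32 genes, 2 fell in the knockout and 0 rose. Both are organic anion uptake carriers of the SLCO family: Slco1a4, lower by 2.75-fold, and Slco2b1, lower by 1.49-fold. Over all genes 2.58% were called higher and 0.951% lower. No enzyme, exporter or sensor of the list passed. The count of 2 became 0 without any 1 of the wild types, without KO-91 or without KO-94, 1 without KO-90, and 4 without KO-03 (Slco1a1 and Cyp7b1 added). At an unadjusted limma p under 0.05 there were 1 higher and 8 lower genes of the 32, where 16.4% of all genes passed in either direction. All 4 knockout animals lay above all 3 wild types for 1 of the 32 genes, against 9.15% of all genes, and below them for 7, against 6.62%. The differences, knockout minus wild type, ran from -1.46 to 0.71 with a median of -0.09, with 12 genes above 0 and 20 below. The median over all genes was 0.01.

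**Figure D1:**
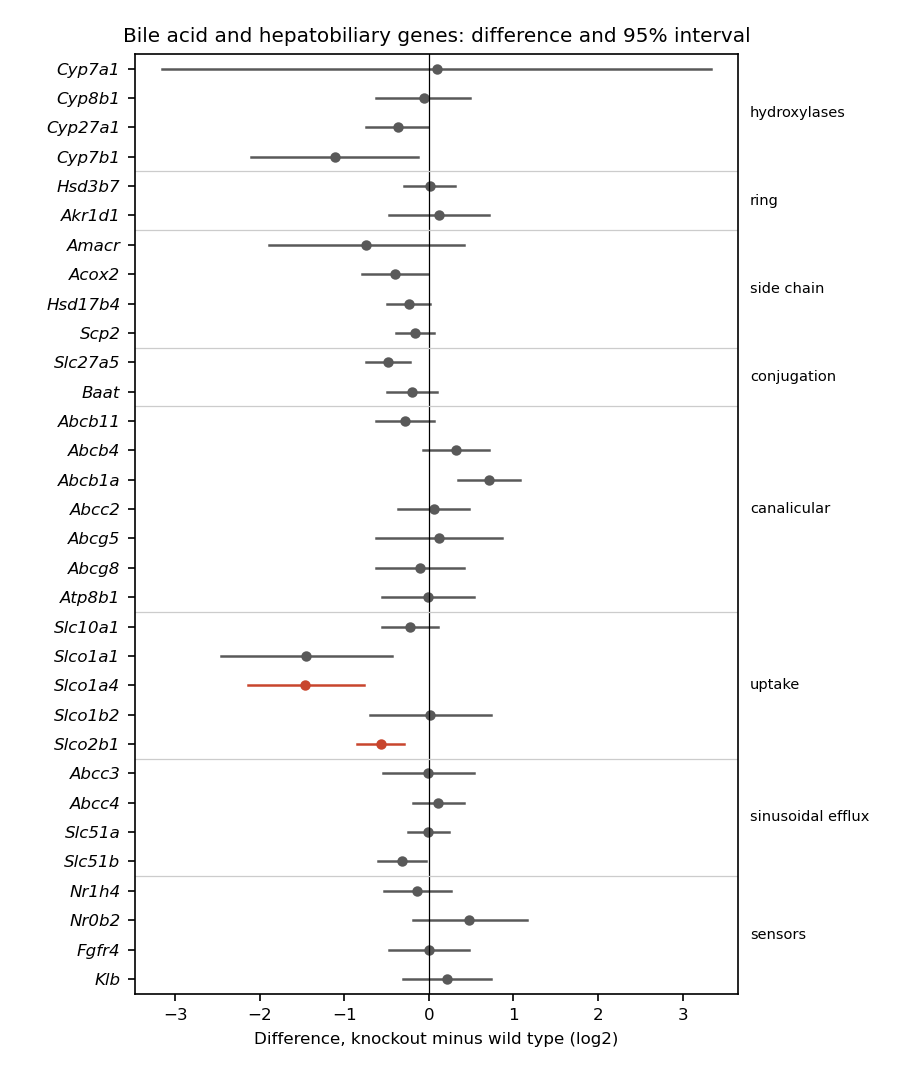
Each point is the knockout minus wild-type difference in log2 value of 1 gene (x axis) and each line its 95% interval from limma, for 32 genes in rows grouped by role (4 knockout and 3 wild-type livers). Genes past an adjusted p of 0.05 are red: Slco1a4 at -1.46 and Slco2b1 at -0.57. The longest interval is that of Cyp7a1, from -3.15 to 3.33.

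How far a missed call bounds a difference varied from gene to gene. Of the 30 genes that were not called, 24 had a 95% interval inside 1 log2 unit on either side of 0, as the plot of differences and intervals shows. The other 6, Cyp7a1, Cyp7b1, Amacr, Slco1a1, Abcb1a and Nr0b2, had intervals that reached past it. Among the 24 were Slc51a and Slc51b, with values at or under the floor in both genotypes, where an interval bounds no difference in level. These intervals hold for the probe set used for each gene. Other probe sets above the floor had intervals past 1 log2 unit for Scp2 (-2.05 to 0.39 in the widest) and Hsd17b4 (-1.59 to 0.16). The same was seen for Akr1d1 (-1.27 to 0.71) and Slco1b2 (-0.91 to 1.09), so a 2-fold difference is not bounded out for these genes. The spread between animals of 1 genotype (the residual SD of the fit) had a median of 0.27 over the 32 genes and was above the median of all genes, 0.19, for 23 of them.

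The sinusoidal uptake carriers held both called genes. Slco1a4 (OATP1A4) carries bile acids, steroid conjugates and other organic anions from blood into hepatocytes. Its log2 value was 8.29, 8.43 and 8.10 in the wild types, and 6.52, 7.75, 6.32 and 6.68 in the knockouts. Every knockout liver lay below every wild-type liver, with KO-90 nearest to them. The wild-type mean was 8.27 ± 0.17 (SD, n = 3) and that of the knockouts 6.82 ± 0.64 (SD, n = 4), a difference of -1.46 (SE 0.30, 95% interval -2.14 to -0.77, limma adjusted p = 0.0353). The call was lost without WT-27 (limma adjusted p = 0.112), WT-103 (0.158), WT-104 (0.0892), and also without KO-91 (0.0933) or KO-94 (0.0793), with differences between -1.55 and -1.29 in these fits. In whole liver, fewer cells of a type and less RNA per cell cannot be told apart.

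Slco2b1 (OATP2B1) is a carrier of steroid sulfates and drugs that is also found outside the liver. It stood at 9.93, 10.00 and 9.94 in the wild types and at 9.16, 9.55, 9.53 and 9.31 in the knockouts, again without overlap. The wild-type mean of 9.96 ± 0.04 (SD, n = 3) fell to a knockout mean of 9.38 ± 0.18 (SD, n = 4), which is a difference of -0.57 (SE 0.12, 95% interval -0.85 to -0.29, limma adjusted p = 0.0434). A second probe set of the gene differed by -0.58 without overlap, with a limma adjusted p of 0.0863 over all 34945 probe sets that name 1 gene, where the first had 0.0566. Another lay at or near the floor and differed by 0.03. The call was kept in 6 of 16 alternative fits and lost without WT-27 (limma adjusted p = 0.124), WT-103 (0.175), WT-104 (0.117), and likewise without KO-90 (0.0597), KO-91 (0.0822) or KO-94 (0.0849).

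Slco1a1 (OATP1A1), a sinusoidal carrier that is more abundant in male than in female mouse liver, had the next largest difference among the carriers and was not called. Its values were 11.59, 11.49 and 11.47 in wild type and 11.09, 10.02, 10.39 and 8.73 in knockout. The groups did not overlap, but the knockouts spread over 2.36 log2 units where the wild types spread over 0.12, with KO-94 lowest. The difference was -1.45 (SE 0.45, 95% interval -2.46 to -0.44, limma adjusted p = 0.134). A second probe set gave -1.51. Without KO-03, the knockout nearest to wild type, the difference was -1.80 and passed (limma adjusted p = 0.0255).

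Slco1b2 (OATP1B2), which takes up bilirubin, unconjugated bile acids and the mushroom toxin phalloidin, had a mean difference near 0. It stood at 12.44, 12.30 and 12.25 in wild type and at 12.75, 12.51, 12.78 and 11.34 in knockout. In 3 knockouts it lay above every wild type and in KO-94 below all of them, so that the means differed by 0.01 (95% interval -0.70 to 0.73). The sign of this difference turns with the choice of probe sets. Slc10a1 (NTCP), the sodium-dependent carrier of conjugated bile acids, stood at 12.38, 12.41 and 12.45 against 11.95, 12.54, 12.22 and 12.06. The groups overlapped, and the difference of -0.22 had an interval from -0.55 to 0.11 (limma adjusted p = 0.514).

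**Figure D2:**
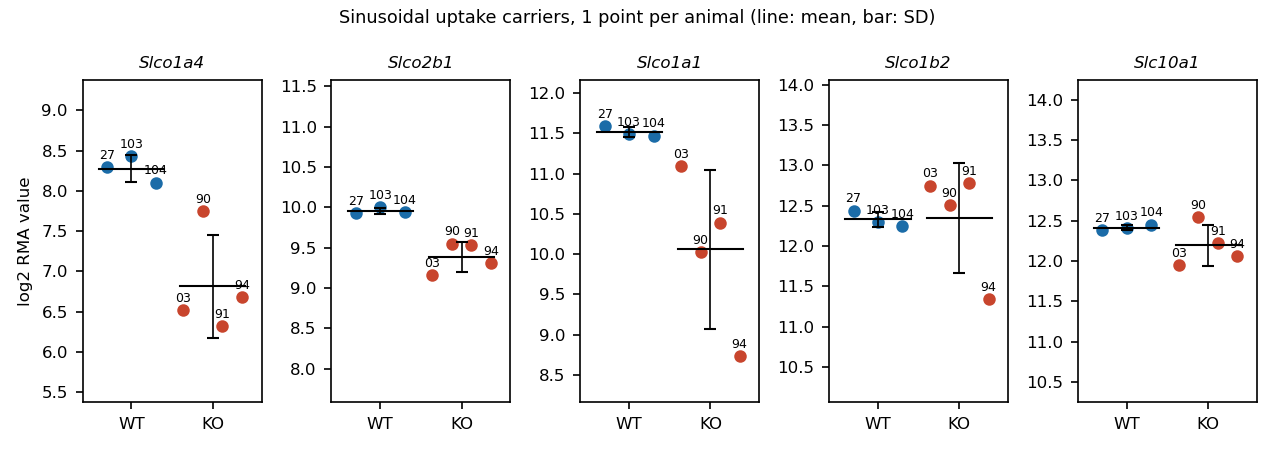
Log2 RMA value (y axis, same span in each panel but not the same start) of 5 sinusoidal uptake carriers in 3 wild-type (WT, blue) and 4 knockout (KO, red) livers, with 1 point per animal labelled by its number, the group mean as a line and the SD as a bar. The knockout points lie below all wild-type points for Slco1a4, Slco2b1 and Slco1a1, and on both sides of them for Slco1b2 and Slc10a1.

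Whether the 4 Slco genes differed from each other in their response was tested by taking, on each array, the value of 1 gene minus that of another. These 6 comparisons were chosen after the values were seen and were tested by exact permutation (two-sided, 35 ways to split the 7 animals), which cannot give a p below 0.0286. The knockout difference was 1.47 log2 units more negative for Slco1a1 than for Slco1b2 (exact permutation p = 0.0286, adjusted 0.171 over the 6 pairs), with the animals of the genotypes apart. It was also 1.47 more negative for Slco1a4 than for Slco1b2 (exact permutation p = 0.0857, adjusted 0.171), again with the genotypes apart, and 0.89 more negative for Slco1a4 than for Slco2b1 (exact permutation p = 0.0857, adjusted 0.171). The other 3 pairs had adjusted values of 0.274, 0.274 and 1. A lone pair at the smallest p the animals allow reaches only 0.171 after adjustment over 6 pairs, so these adjusted values say little about whether the carriers differ. Slco1a1 and Slco1a4 are close paralogs, probe sequences were not used here, and cross-hybridisation between them was not tested.

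The 250 bases before the annotated start of these 4 carriers are shown because the genes are one family and 3 of them lie near each other on chromosome 6, with knockout differences from -1.46 for Slco1a4 to 0.01 for Slco1b2. The sequences are from RefSeq, build GRCm38.p6, whose promoter table held 24 of the 32 genes. Capitals mark matches to 5 motifs, searched on both strands. The nuclear receptor half-site was AGGTCA, present in 14.0% of 32851 windows of this length. The HNF4-type motif was CAAAGTCCA, present in 0.384% of them. The HNF1-type half-site was GTTAAT, present in 6.43%. The STAT5-type motif was TTCNNNGAA, present in 7.02%. The GATA-type motif was AGATAA, present in 9.99%. No printed matches overlap each other. For Slco2b1 the most upstream of 3 listed starts was taken.
Slco1a4, chr6:141856221-141856470, minus strand: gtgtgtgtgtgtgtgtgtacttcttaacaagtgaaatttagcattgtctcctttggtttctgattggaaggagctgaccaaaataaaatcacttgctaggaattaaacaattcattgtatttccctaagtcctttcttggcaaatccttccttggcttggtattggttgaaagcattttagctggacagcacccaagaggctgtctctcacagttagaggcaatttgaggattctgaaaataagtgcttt
Slco2b1, chr7:99711341-99711590, minus strand: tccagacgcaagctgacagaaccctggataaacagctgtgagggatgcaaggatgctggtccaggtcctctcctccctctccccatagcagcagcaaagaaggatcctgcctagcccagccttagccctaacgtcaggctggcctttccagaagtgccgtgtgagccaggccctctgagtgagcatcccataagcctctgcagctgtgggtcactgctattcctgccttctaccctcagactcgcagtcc
Slco1a1, chr6:141946963-141947212, minus strand: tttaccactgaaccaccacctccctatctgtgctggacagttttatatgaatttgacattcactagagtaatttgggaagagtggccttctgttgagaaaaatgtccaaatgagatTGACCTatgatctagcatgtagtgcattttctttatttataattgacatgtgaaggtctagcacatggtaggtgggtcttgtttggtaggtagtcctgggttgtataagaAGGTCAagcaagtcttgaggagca
Slco1b2, chr6:141629268-141629517, plus strand: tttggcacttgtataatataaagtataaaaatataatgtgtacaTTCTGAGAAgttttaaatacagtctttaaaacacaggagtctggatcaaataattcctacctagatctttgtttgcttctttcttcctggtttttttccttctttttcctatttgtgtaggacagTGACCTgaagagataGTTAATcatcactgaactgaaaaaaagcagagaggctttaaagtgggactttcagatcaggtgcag
The windows of Slco1a4 and Slco2b1 held 0 matches. That of Slco1a1 held 2 nuclear receptor half-sites and that of Slco1b2 held 1 half-site, 1 HNF1-type and 1 STAT5-type match.  A match says only that these letters are present.

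Among the hydroxylases that open bile acid synthesis, Cyp7a1, the rate-limiting enzyme, differed far more between animals than between genotypes. It stood at 5.74, 10.23 and 10.75 in wild type and at 6.06, 11.33, 10.34 and 8.26 in knockout. WT-27 and KO-03 were low, the other animals were high apart from KO-94 in between, and the groups overlapped across nearly their whole range. The means were 8.91 ± 2.75 (SD, n = 3) and 9.00 ± 2.34 (SD, n = 4), a difference of 0.09 whose interval ran from -3.15 to 3.33 (SE 1.43, limma adjusted p = 0.986). Its residual SD of 2.51 ranked 1 of 18193 genes, so these 7 animals allow no statement on Cyp7a1 within that interval. A second probe set showed the same animals low, at 4.19, 9.19 and 9.80 in wild type and 4.72, 10.89, 9.25 and 7.54 in knockout, with WT-27 and KO-03 at or under the floor. Leaving out 1 animal at a time moved the difference from -1.49 without WT-27 to 1.07 without KO-03.

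Cyp8b1, the sterol 12α-hydroxylase that directs synthesis toward cholic acid, stood at 10.62, 11.17 and 11.74 in wild type and 10.98, 11.26, 11.37 and 10.85 in knockout. The knockout values lay inside the wild-type range, with a difference of -0.06 (95% interval -0.62 to 0.49). Cyp27a1, the mitochondrial 27-hydroxylase, stood at 11.79, 11.97 and 11.98 against 11.56, 11.81, 11.64 and 11.15, and 3 knockouts lay below all wild types. Its difference of -0.37 was not called (95% interval -0.74 to -0.01, limma adjusted p = 0.288).

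Cyp7b1, the oxysterol 7α-hydroxylase of the alternative pathway, which is also more abundant in male mouse liver, stood at 12.89, 12.81 and 13.16 in wild type. In the knockouts it was 12.97, 10.83, 12.25 and 11.32: KO-03 lay among the wild types and the other 3 below them. The difference was -1.11 (SE 0.44, 95% interval -2.10 to -0.13, limma adjusted p = 0.241), and -1.49 in a second probe set. Without KO-03 it was -1.49 and passed (limma adjusted p = 0.0304).

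**Figure D3:**
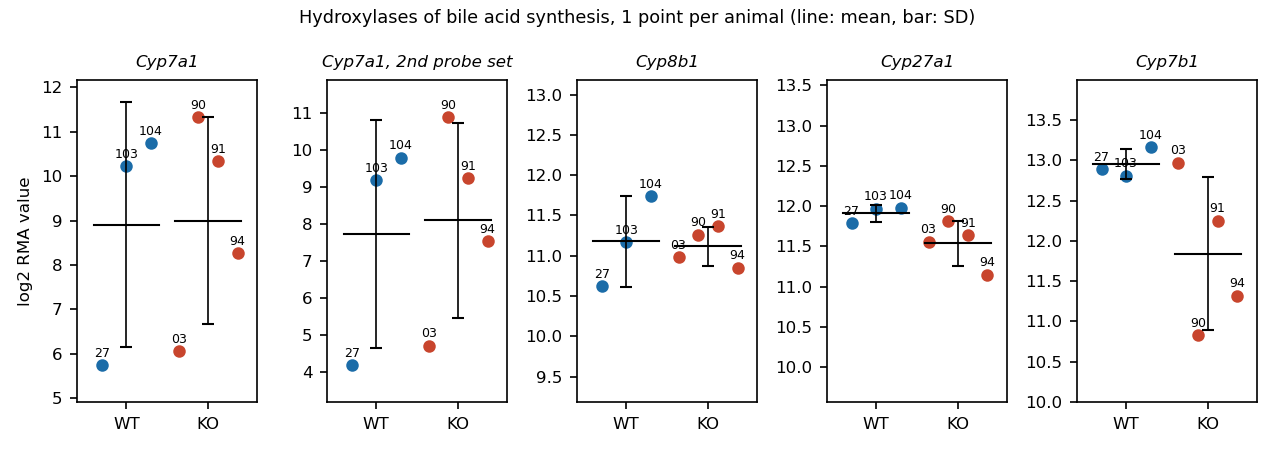
Log2 RMA value (y axis, own scale in each panel) of the hydroxylases Cyp7a1 (2 probe sets), Cyp8b1, Cyp27a1 and Cyp7b1 in 3 wild-type (WT, blue) and 4 knockout (KO, red) livers, with 1 point per animal labelled by its number, the group mean as a line and the SD as a bar. Both probe sets of Cyp7a1 are lowest in WT-27 and KO-03, and Cyp7b1 is low in KO-90 and KO-94.

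The 2 enzymes that modify the sterol ring were not called. Hsd3b7, the 3β-hydroxysteroid dehydrogenase of the pathway, lay between 12.57 and 12.85 in wild type and between 12.55 and 12.95 in knockout, a difference of 0.01 (95% interval -0.29 to 0.31). Akr1d1, the Δ4-3-oxosteroid 5β-reductase, lay between 9.98 and 10.18 in wild type and at 10.41, 10.74, 10.30 and 9.46 in knockout. In 3 knockouts it was above every wild type and in KO-94 below, with a difference of 0.12 (95% interval -0.47 to 0.71) and one of -0.28 in a second probe set.

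The 4 peroxisomal genes of side chain shortening all had differences below 0 and none was called. Amacr, the racemase of the side chain, stood at 10.85, 11.26 and 11.11 in wild type and at 10.96, 8.76, 11.27 and 10.32 in knockout. KO-90 and KO-94 were low while KO-03 and KO-91 lay within or just above the wild-type range, and the difference of -0.74 had an interval from -1.89 to 0.41. Acox2, the branched-chain acyl-CoA oxidase, stood at 11.01, 11.06 and 11.18 against 10.90, 10.48, 11.02 and 10.35, a difference of -0.40 (limma adjusted p = 0.295). Hsd17b4, the bifunctional enzyme of the next steps, stood at 11.87, 11.75 and 11.86 against 11.69, 11.50, 11.69 and 11.44. Its groups did not overlap, and the difference was -0.24 (limma adjusted p = 0.328). A second probe set of Hsd17b4 gave -0.72 with overlapping groups, KO-03 lying above all wild types at 11.74. Scp2, the thiolase and sterol carrier, differed by -0.16 without overlap (limma adjusted p = 0.477). Its 3 other probe sets differed by -0.83, -0.71 and -0.68 with overlapping groups.

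Both conjugating enzymes had differences below 0. Slc27a5, the bile acyl-CoA synthetase that activates bile acids for conjugation, stood at 12.64, 12.66 and 12.90 in wild type and at 12.24, 12.12, 12.36 and 12.29 in knockout. The groups did not overlap and both were narrow, with a difference of -0.48 (SE 0.12, 95% interval -0.74 to -0.22) that missed the threshold (limma adjusted p = 0.062) and passed it in 4 of 16 alternative fits. Baat, which transfers the amino acid, stood at 10.30, 10.25 and 10.20 against 9.92, 10.10, 10.30 and 9.89. The groups overlapped through KO-91, and the difference was -0.20 (95% interval -0.49 to 0.09), with -0.22 in a second probe set.

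The canalicular exporters were not called. Abcb11 (BSEP), the bile salt export pump, stood at 11.16, 11.21 and 11.22 in wild type and at 10.57, 11.04, 11.20 and 10.85 in knockout. The wild types spanned only 0.05, KO-91 lay among them and the other 3 knockouts below, for a difference of -0.28 (95% interval -0.63 to 0.06, limma adjusted p = 0.414). Abcb4 (MDR2), the phosphatidylcholine floppase, stood at 10.95, 10.73 and 10.72 against 11.35, 11.11, 11.35 and 10.68. It was above the wild types in 3 knockouts and below them in KO-94, with a difference of 0.32 (95% interval -0.07 to 0.71, limma adjusted p = 0.409). Abcc2 (MRP2), which exports glucuronide and glutathione conjugates, differed by 0.06 (95% interval -0.36 to 0.47).

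Abcb1a, a P-glycoprotein gene, was the 1 gene of the list with all knockouts above all wild types. It lay at 3.80, 3.95 and 3.73 in wild type and 4.13, 4.58, 4.80 and 4.64 in knockout, never above the floor in either genotype, so no fold is given. The measured difference was 0.71 (limma adjusted p = 0.0504).

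The sterol exporters Abcg5 and Abcg8, whose products form 1 transporter that moves cholesterol into bile, varied between animals within each genotype, and neither was called. Abcg5 stood at 9.65, 8.84 and 8.93 in wild type and at 9.74, 9.49, 9.45 and 8.36 in knockout (difference 0.12, 95% interval -0.62 to 0.86). Abcg8 stood at 8.95, 8.13 and 8.25 against 8.65, 8.30, 8.49 and 7.91 (difference -0.11, 95% interval -0.63 to 0.42). In both genes WT-27 and KO-03 were the highest of the 7 animals and KO-94 the lowest. These genes lie head to head, with 109 bases between the start of Abcg5 and the nearer of 2 listed starts of Abcg8. The stretch is shown because it lies between both starts, in RefSeq build GRCm38.p6, written on the strand of Abcg8, with GATA-type letters (AGATAA on either strand) in capitals; the other 4 motifs had no match.
Abcg5-Abcg8, chr17:84683012-84683120, plus strand: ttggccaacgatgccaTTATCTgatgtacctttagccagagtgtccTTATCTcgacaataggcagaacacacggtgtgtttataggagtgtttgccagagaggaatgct
It held 2 such matches, and 3.98% of the 32851 promoter windows held at least 1 in the 109 bases before the start.

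Atp8b1 (FIC1), an aminophospholipid flippase of the canalicular membrane, stood at 8.47, 8.10 and 7.86 in wild type and 8.67, 7.77, 8.29 and 7.80 in knockout. WT-27 and KO-03 were again highest, and the difference was -0.01 (95% interval -0.55 to 0.53).

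Of the genes for efflux back to blood, Abcc3 (MRP3), an exporter of conjugates at the sinusoidal side, stood at 10.48, 9.75 and 9.73 in wild type and at 10.41, 10.11, 9.81 and 9.61 in knockout. WT-27 and KO-03 were the highest here too, and the difference was -0.01 (95% interval -0.54 to 0.53). Abcc4 (MRP4), a bile acid and nucleotide exporter, lay between 5.14 and 5.37 in wild type and between 5.10 and 5.54 in knockout, a difference of 0.11 (95% interval -0.19 to 0.41). In WT-104 (5.14, floor 5.10) and KO-90 (5.28, floor 5.23) it lay only just above the floor, which limits this bound. Slc51a, a subunit of the OST heterodimer, was above the floor in 0 of 7 animals. Its partner Slc51b stood at 4.93, 5.37 and 5.04 in wild type, of which 1 lay under the floor, and at 4.80, 4.75, 4.80 and 4.85 in knockout, all at or under it. With values under the floor in both genotypes the size of the difference is not bounded, and the fitted difference of -0.32 was not called (limma adjusted p = 0.248).

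The sensors and feedback genes were not called. Nr1h4 (FXR), the bile acid receptor, stood at 9.69, 9.17 and 9.24 in wild type and at 9.42, 9.42, 9.17 and 8.91 in knockout, a difference of -0.14 (95% interval -0.53 to 0.26). Nr0b2 (SHP), the repressor that FXR induces, stood at 9.22, 8.71 and 9.11 against 9.66, 8.62, 9.72 and 9.99. In 3 knockouts it was above every wild type and in KO-90 it was the lowest of the 7. The difference was 0.48 (95% interval -0.19 to 1.16, limma adjusted p = 0.482). Fgfr4, the receptor for the intestinal hormone FGF15, stood at 8.23, 8.42 and 8.43 against 7.77, 8.42, 8.53 and 8.73, a difference of 0.00 (95% interval -0.47 to 0.48). Klb, its co-receptor, stood at 7.81, 7.77 and 8.14 against 7.84, 8.77, 7.97 and 7.87, a difference of 0.21 (95% interval -0.31 to 0.73).

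Several of these genes moved with single animals, as the map of values by animal shows. WT-27 and KO-03, of opposite genotype, were the 2 lowest animals for Cyp7a1 and the 2 highest for Abcg5, Abcg8, Abcc3 and Atp8b1. KO-90 and KO-94 were the 2 lowest of the 7 for Cyp7b1, Amacr, Acox2, Hsd17b4 and Slco1a1. KO-94 had the lowest value of the 4 knockouts in 15 of the 32 genes, against 8 for KO-03, 7 for KO-90 and 2 for KO-91. The median of its 32 differences from the wild-type mean was -0.37, against -0.12 in KO-03, -0.06 in KO-90 and 0.04 in KO-91. These patterns were picked after the values were seen and are given without a test.

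**Figure D4:**
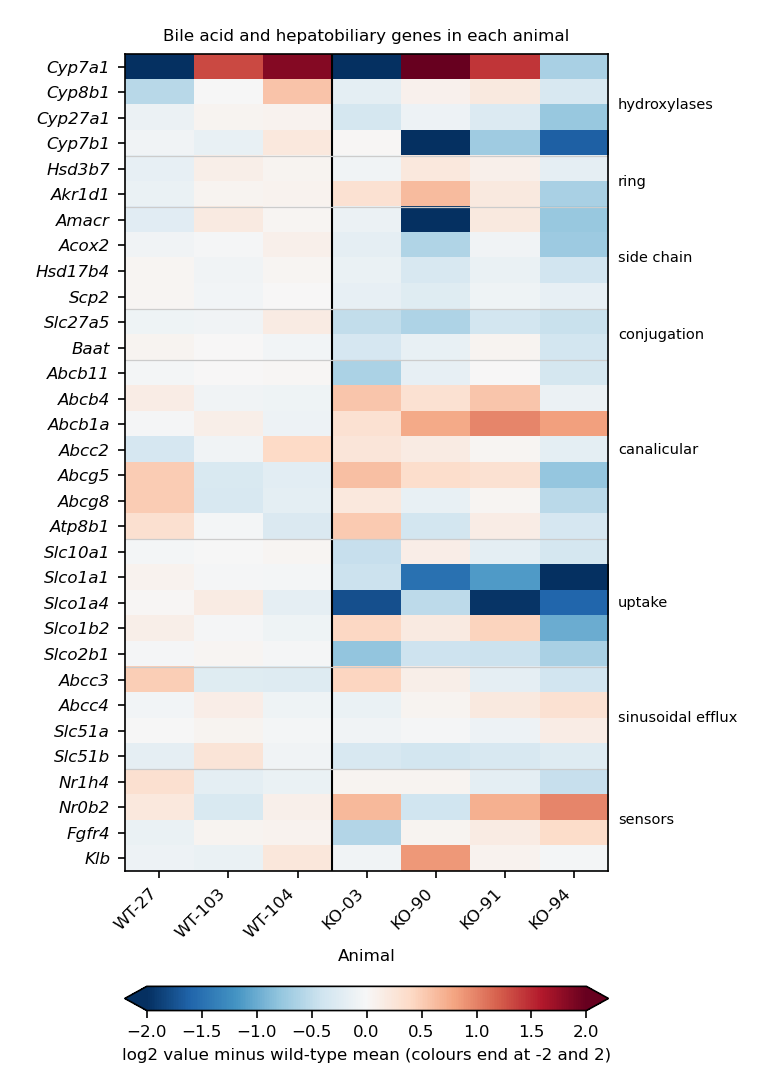
Colour gives the log2 value of each gene (rows, grouped by role) in each animal (columns, wild type left of the line and knockout right of it) minus the mean of the 3 wild types, with colours ending at -2 and 2. WT-27 and KO-03 are both blue for Cyp7a1 and orange for Abcg5, and KO-94 holds the lowest knockout value in 15 of the 32 genes.

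A wider list of 53 genes of bile acid handling (other hydroxylases, peroxisome and membrane partners, further carriers and nuclear receptors) was measured for 47. Of these 1 rose, 1 fell and 45 did not pass, with a median difference of -0.09. Over all genes 2.58% were called higher and 0.951% lower. Aqp8, a water channel of the hepatocyte, fell from 9.94, 10.10 and 9.61 in wild type to 7.79, 8.64, 8.55 and 8.23 in knockout, without overlap (difference -1.58, 95% interval -2.06 to -1.10, limma adjusted p = 0.00604). Myo5b, the motor that carries recycling vesicles with canalicular transporters, rose from 6.96, 7.11 and 6.97 to 7.79, 8.03, 7.82 and 7.97 (difference 0.89, 95% interval 0.64 to 1.14, limma adjusted p = 0.00441). Both were called in 16 of 16 alternative fits. The next 2 by p-value were Cyp2c70, which makes muricholic acids in mice, with a difference of -0.75 (limma adjusted p = 0.064), and the exporter Abcg2 with -0.68 (limma adjusted p = 0.0723).

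Some markers of other liver cells moved with the genotype beside these results. The marker lists were chosen with earlier results of these data known, so their counts beside the share of all genes are no test. Of 9 cholangiocyte markers 7 were measured and 4 rose (Tspan8, Epcam, Krt19 and Cldn7), where 2.58% of all genes were called higher. The summed level of the 7 was 7.12 to 7.35 (log2) in wild type and 7.97 to 9.24 in knockout. In wild type, Tspan8 and Cldn7 lay at or under the floor in all 3 animals and Krt19 and Epcam in 2. Part of the wild-type sum is therefore not told from background. Tspan8 was called in 16 of 16 alternative fits, Epcam in 15, Krt19 in 10 and Cldn7 in 8. Krt19 and Cldn7 were lost without any 1 wild type (limma adjusted p from 0.0592 to 0.109 and from 0.101 to 0.167) and without KO-90 (0.0601 and 0.103), KO-91 (0.0712 and 0.105) or KO-94 (0.05 and 0.0828), and Epcam without WT-103 (0.0556). The cholangiocyte genes Krt7 and Cftr were above the floor on none of the arrays. Sox9 was above it on all 7 and was not called (difference 0.44 without overlap, limma adjusted p = 0.214). Of 9 stellate cell markers 5 rose (Pdgfra, Col1a1, Pdgfrb, Dcn and Col1a2), again where 2.58% of all genes were called higher. Not called were Des (difference 0.36), Reln (0.34), Acta2 (0.29) and Lrat (-0.13). The summed level of all 9 was 11.59 to 11.67 in wild type and 12.18 to 12.61 in knockout. Without WT-103 the calls of Pdgfrb (limma adjusted p = 0.053), Dcn (0.0732) and Col1a2 (0.0781) were lost, and without WT-27 that of Dcn (0.059). Of the 7 hepatocyte markers measured 0 were called, with a summed level of 16.74 to 16.79 in wild type and 16.76 to 16.84 in knockout. That sum is set mostly by Alb, Serpina1c, Apoa1 and Ttr (wild-type means 14.6, 14.51, 14.4 and 14.34). Whether such bright probe sets still follow a change in level was not tested. The largest difference among the hepatocyte markers was that of Tat, 0.90 without overlap (limma adjusted p = 0.0533). None of 7 Kupffer cell and 6 endothelial markers was called by limma. At an unadjusted p under 0.05 there were 1 higher hepatocyte marker, 2 higher Kupffer cell markers, and 1 higher and 1 lower endothelial marker. That threshold was passed by 16.4% of all genes in either direction. The part of these cells in the lower Slco1a4 and Slco2b1 was not tested.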

How the data were processed

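Frozen-liver RNA of 3 wild-type and 4 knockout mice was biotin-labelled and hybridised to 1 Affymetrix array each, per the labels' protocols. The authors deposited log2 values per probe set, which the submitters' processing notes and the design text say came from RMA in software from Partek. RMA includes quantile normalization, which assumes similar overall distributions.

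Platform annotation gave 34945 of 45101 probe sets 1 symbol and 932 several, and 9160 were not listed. Each gene was read from its probe set of highest mean level. The 32 genes had 56 probe sets. Limma 3.58.1 (R 4.3.3; lmFit, eBayes, two-sided, 5 residual and 3.99 prior degrees of freedom) compared genotypes without covariates and was tested on simulated data; Benjamini-Hochberg adjustment ran over all 18193 genes. The labels give animal numbers but no litters, so p-values reflect the spread between these animals.

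The genes and marker lists were chosen with earlier results of these data known. Named are all 32 genes, wider-list genes past the threshold and those with the 4 smallest p-values, and markers past the threshold. Slc10a2, the motifs, the Slco pairs, Krt7, Cftr, Sox9, Tat, the uncalled stellate cell markers and the genes of the last observation were chosen after their values were seen. Alternatives were trended or robust priors, array weights, renewed quantile normalization, median centring, a filter on dim genes, other probe set rules and leaving out each array. Python 3.11.15, pandas 2.3.3 and matplotlib 3.10.9 were used.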

Additional observations from a re-analysis of the deposited data

Results flagged for a closer look

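In 2 of the 45 named genes a single knockout lay apart from the other 3 by Dixon's criterion (the gap to the nearest animal over the whole range), which by chance singles out about 1 in 20 groups. Klb was 8.77 in KO-90, the next knockout being 7.97 (ratio 0.855). Without KO-90 its difference was -0.01. The cholangiocyte marker Tspan8 was 5.30 in KO-03, the next being 6.93 (ratio 0.84), and it was called in 16 of 16 alternative fits.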

How the results depend on the processing

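Of 16 alternative fits, Slco1a4 was called in 11 (limma adjusted p from 0.0031 to 0.158) and Slco2b1 in 6 (0.0247 to 0.175), always with a difference below 0. Of the 32 genes, 1 was called higher (Abcb1a) with a trended or robust prior, array weights or renewed quantile normalization. The lower count was 4 with array weights and 1 with median centring, without _x_at and _s_at probe sets, or with every probe set on its own. It was 3 with a trended prior or the filter on dim genes, where Slc27a5 also passed (limma adjusted p = 0.0345 and 0.0456). With the mean of all probe sets it stayed at 2, but Slc27a5 passed (limma adjusted p = 0.0498) and Slco2b1 did not (0.114). Array weights gave 909 higher and 344 lower genes overall (470 and 173 as reported) and 2 and 4 in the wider list. That list had 2 lower genes with a trended prior or the filter on dim genes (group mean of at least 6, 8882 genes, 28 of the 32 left), and 2 higher with the mean of all probe sets and 3 without _x_at and _s_at probe sets. Leaving out 1 array at a time gave 132 to 892 higher and 37 to 252 lower genes, 0 to 1 higher and 0 to 4 lower of the 32 (0 without any 1 wild type, KO-91 or KO-94, 1 without KO-90, 4 without KO-03), and 1 to 3 higher and 1 to 5 lower in the wider list.

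Uncalled differences changed sign with array weights (Cyp8b1 0.09, Atp8b1 0.05), renewed quantile normalization (Slc51a 0.01, Fgfr4 -0.01), median centring (Slc51a 0.00), the mean of all probe sets (Slco1b2 -0.10, Akr1d1 -0.08) and without _x_at and _s_at probe sets (Slco1b2 -0.04). Leaving out 1 array, differences ran from -1.49 to 1.07 for Cyp7a1, -0.34 to 0.22 for Cyp8b1, -0.19 to 0.15 for Atp8b1, -0.06 to 0.03 for Slc51a, -0.12 to 0.20 for Fgfr4, -0.13 to 0.35 for Slco1b2, -0.05 to 0.38 for Akr1d1, -0.11 to 0.25 for Abcc2, -0.15 to 0.24 for Abcc3, -0.27 to 0.15 for Abcg8, -0.23 to 0.02 for Nr1h4, -0.07 to 0.08 for Hsd3b7, -0.04 to 0.42 for Abcg5 and -0.01 to 0.33 for Klb. The cause of these changes was not tested.

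No paired analysis was possible because the animal numbers do not recur between genotypes. Of the 24 other probe sets of these genes, 6 lay under the floor on all arrays, 11 of the other 18 had the sign of the one used, and 0 were called over all probe sets by limma. The 11 leave out those of Fgfr4 (0.18, 0.22 and 0.06), because the one used differed by 0.00 after rounding and was given no sign. Signal at or near the floor limits Abcb1a, Abcc4, Slc51a and Slc51b, and also the wild-type values of the cholangiocyte markers Tspan8, Cldn7, Krt19 and Epcam.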

Other observations

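WT-27 and KO-03, the 2 highest animals for Abcg5, Abcg8, Atp8b1 and Abcc3 but not for the exporters Abcb11 and Abcc2, were also the 2 highest for 1 carrier outside the list, picked after its values were seen. Slc10a2 (ASBT), the apical sodium-dependent bile acid carrier of ileum and bile duct, stood at 7.56, 6.14 and 7.05 in wild type and at 7.78, 6.14, 6.24 and 5.92 in knockout. WT-27 and KO-03 also had the lowest Cyp7a1.

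WT-27 lay above the other wild types in Cyp4a14 and Fgf21, which are known to respond to fasting and to PPARα. These genes and those below were picked after their values were seen. Cyp4a14, a fatty acid ω-hydroxylase, was 11.48 in WT-27 and 7.88 and 7.38 in WT-103 and WT-104, with 12.13, 11.26, 10.78 and 10.19 in the knockouts. Fgf21, a hepatic fasting hormone, was 7.99, 5.45 and 4.81 in wild type, the last value lying under the floor, and 7.09, 6.14, 7.06 and 7.06 in knockout. Angptl4, a lipoprotein lipase inhibitor, was 10.87, 7.80 and 10.01 against 11.03, 10.20, 10.53 and 10.32, and there WT-103 was the wild type that lay apart. KO-03 was the highest of the 7 for Cyp4a14 and Angptl4. Srebf1, a regulator of fatty acid synthesis, was lowest in WT-27 among the wild types (9.22, 10.62 and 10.09) and lowest in KO-03 among the knockouts (8.42, 9.49, 9.05 and 8.56). The labels used here give no feeding state, and its part in the spread of Cyp7a1 was not tested.

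Mt1, a metallothionein of the stress response, was highest in KO-94 (12.86, against 10.63, 10.73 and 8.92 in the other knockouts and 10.69, 7.68 and 8.44 in wild type), the knockout with the lowest values in 15 of the 32 bile genes.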
